A study of Mus musculus with 28 samples.

Results

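Alkbh5, Fto and the other mammalian AlkB enzymes were followed as a family of 9 genes, Alkbh1 to Alkbh8 and Fto, in hair follicle stem cells of Alkbh5 conditional knockout (cKO) and wild-type (WT) mice. The members were taken by gene symbol, without use of any measured value, and all 9 were listed in each of the 3 deposited gene tables, which hold 56691, 47243 and 57010 genes. They were followed over 12 RNA-seq libraries of the 28 samples in the series. The 16 m6A libraries were not analysed here.

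These proteins are oxygenases that use iron and 2-oxoglutarate, and most of them remove methyl groups from nucleic acids by oxidising the methyl group. ALKBH5 and FTO remove N6-methyladenosine (m6A), the most abundant internal mark of messenger RNA. Their relatives act on damaged DNA bases, on transfer RNA, or on proteins, and m6A itself is written by a methyltransferase complex around METTL3 and METTL14.

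Sorted cells of 2 kinds were compared at postnatal day 69: stem cells of the bulge, a quiescent store at the base of the resting follicle, and stem cells of the hair germ, which lie beneath the bulge and divide first when hair growth starts. There were 3 datasets with 2 Alkbh5 cKO mice and 2 WT mice each. Bulge and hair germ cells were prepared by SHERRY2, in which a transposase cuts RNA and cDNA hybrids directly, from 200 ng and 40 ng of total RNA. A further hair germ dataset was prepared by SMART-seq, which amplifies full-length cDNA, from 40 ng. Labels name separate mice and a sort by flow cytometry. The sources used here do not give the Cre driver, the deleted exon or the sorting markers.

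The promoters of the 2 m6A demethylases are shown because the comparison turns on these genes, of which 1 was targeted and the other was not. They are RefSeq windows of GRCm38.p6, from 250 bases before to 50 bases after the start, read 5′ to 3′ on the plus strand of each gene at chr11:60537433-60537732 for Alkbh5 and chr8:91313275-91313574 for Fto. Capitals mark CG dinucleotides.
Alkbh5: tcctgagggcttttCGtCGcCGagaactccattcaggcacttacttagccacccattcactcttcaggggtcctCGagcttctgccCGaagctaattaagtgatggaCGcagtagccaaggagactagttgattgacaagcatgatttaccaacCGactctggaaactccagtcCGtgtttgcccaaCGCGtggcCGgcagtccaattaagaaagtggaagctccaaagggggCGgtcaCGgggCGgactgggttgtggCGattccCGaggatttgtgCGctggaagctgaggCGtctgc
Fto: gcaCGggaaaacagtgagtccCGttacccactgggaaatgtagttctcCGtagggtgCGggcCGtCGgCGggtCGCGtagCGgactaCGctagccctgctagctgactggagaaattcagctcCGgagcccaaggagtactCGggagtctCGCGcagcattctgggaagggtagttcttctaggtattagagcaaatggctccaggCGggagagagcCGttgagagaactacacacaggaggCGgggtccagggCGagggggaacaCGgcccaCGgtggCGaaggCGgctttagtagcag
The Alkbh5 window held 18 CG dinucleotides and the Fto window 23, against a median of 7 over 32851 promoters of the same length. The other 7 members held between 5 CG dinucleotides (Alkbh8) and 33 (Alkbh4). Read on both strands, TATAAA, the TATA box, was in none of the 9 windows and in 13.6% of all promoters. GGGCGG, a GC box, was in the windows of Alkbh2, Alkbh5 and Alkbh6 and in 35.7% of all promoters, and CCGGAAG, an ETS-type motif, was in those of Alkbh1, Alkbh2, Alkbh3 and Alkbh4 and in 8.86% of all. These matches describe the windows only.

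Reads in genes numbered 14676168 to 21187283 per bulge library and 9001396 to 14416601 per SMART-seq library. Hair germ SHERRY2 libraries held 1526070 and 2317407 reads in cKO mice, and 1513001 and 488648 reads in WT mice. All 12 keratinocyte stem cell markers (among them Krt15, Cd34 and Sox9) had reads in every library. Hair germ SHERRY2 libraries had reads on 38272 to 42826 of 47243 genes, among them every endothelial, fibroblast and muscle marker. The presence of reads there does not identify the cells. Reads of hair germ SHERRY2 also fell on 16888 genes that had 0 reads in all libraries of both other tables. These silent genes took 3.88 and 1.82% of the reads in cKO mice, and 2.58 and 6.68% in WT mice. Xist and Y-linked genes showed that sexes were mixed: bulge WT mouse 2, hair germ SHERRY2 cKO mouse 1 and mouse 2 of each SMART-seq group were male and the others female. Hair germ SHERRY2 mice are numbered as in the deposited normalized values, which the labels tie to a genotype but not to a named mouse.

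Alkbh5 fell to a few percent of its WT level in cKO bulge cells. In hair germ cells by SHERRY2 it was lower in both cKO mice, with a call that depended on the test, and in the SMART-seq libraries labelled cKO its range overlapped that of WT libraries. The gene (ENSMUSG00000042650) lies on the plus strand at chr11:60427207-60449338 in the bulge table, which names no build. In the bulge, 68 and 50 reads fell on Alkbh5 in cKO mice, against 2095 and 1351 reads in WT mice. After TMM scaling, which corrects CPM (a read count relative to all reads in genes) for library composition, these were 4.21 and 2.38 scaled CPM in cKO mice, against 107 and 96.1 scaled CPM in WT mice. The groups stood far apart. The mean in cKO mice was 3.29 ± 1.29 scaled CPM, against 102 ± 7.78 scaled CPM in WT mice (SD, n = 2 each). By edgeR's quasi-likelihood test the log2 fold change was -4.97 (SE 0.28, Benjamini-Hochberg adjusted p = 0.000492), which leaves 3.20% of the WT level with a 95% interval of 2.05 to 4.98%. At an adjusted p under 0.05, 3.04% of the 15672 genes tested were called and 1.6% were called lower in cKO mice, and Alkbh5 had the 4th lowest p and the 4th most negative fold change. Counts per gene do not show in which exons the remaining reads lay. In bulk samples, fewer cells that express a gene and less of its RNA per cell cannot be told apart.

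Sums of some marker lists also separated by genotype in the bulge, where 52.3% of all genes, taken singly, did not overlap by scaled values. The sums of the interfollicular epidermis, melanocyte, fibroblast and muscle markers overlapped. The 8 immune markers summed to 52.0 to 95.1 CPM in cKO mice, against 199 to 247 CPM in WT mice, and the 4 sebaceous markers summed to 43.7 to 47.2 CPM in cKO mice, against 13.8 to 19.1 CPM in WT mice. The 5 hair germ markers summed to 442 to 657 CPM in cKO mice, against 750.2 to 885 CPM in WT mice, and the 3 endothelial markers to 0.458 to 1.31 CPM in cKO mice, against 1.43 to 2.64 CPM in WT mice. Taken singly, Lyz2, Scd3, Cdh3, Lgr5, Cdh5 and Kdr overlapped between groups, and the other markers of these lists did not. Cxcl14 held the largest part of the hair germ sum, at 172 to 348 CPM in cKO mice, against 462 to 581 CPM in WT mice. None of the markers of these lists was at 0 in both libraries of a group, but Cdh5 reached 0 CPM in each group and Kdr in WT mice. The 12 stem cell markers summed to 28405 to 32373 CPM in cKO mice, against 32900 to 34495 CPM in WT mice. The part of these cells in the values of the family was not tested.

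In hair germ cells by SHERRY2, Alkbh5 had 27 and 16 reads in cKO mice, against 95 and 30 reads in WT mice. The deposited normalized counts, which are reads divided by a size factor per library, were 19.8 and 13.1 in cKO mice, against 93.0 and 47.4 in WT mice. Both cKO mice lay below both WT mice, and the mean was 16.4 ± 4.76 normalized counts in cKO mice, against 70.2 ± 32.2 in WT mice (SD, n = 2 each). The size factors, 1.36 and 1.22 in cKO mice against 1.02 and 0.632 in WT mice, were not proportional to the reads in genes. Totals of the normalized counts therefore still differed between libraries. By CPM of all reads, Alkbh5 was at 17.7 and 6.90 in cKO mice, against 62.8 and 61.4 in WT mice. The change in mean log2(CPM + 1) was -2.38. On the log2(normalized count + 1) scale limma gave a change of -1.98 (SE 0.61, 95% interval -3.19 to -0.77, Benjamini-Hochberg adjusted p = 0.724), so Alkbh5 did not pass the test there, although its unadjusted p of 0.00168 was the 89th lowest of 38953 genes. The share of genes called by limma was 0.0077%. edgeR on whole reads recovered from the normalized counts called 0.377% of 16707 genes, Alkbh5 among them at a log2 fold change of -2.31 (adjusted p = 0.00993). That edgeR call held without WT mouse 2 (adjusted p = 0.00264) and was lost without cKO mouse 1 (0.878), cKO mouse 2 (1.00) or WT mouse 1 (0.332). In each of these leave-outs, 1 group is a lone library that is assumed to vary like the other group.

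The few Alkbh5 reads of the hair germ cKO libraries stood close to the level of silent genes. Silent genes had 2.87 and 2.05 reads per exonic kilobase in cKO mice, against 1.89 and 1.58 in WT mice. Over the 5987 exonic bases of Alkbh5 that rate would give 17.2 and 12.3 reads in cKO mice, and 11.3 and 9.47 reads in WT mice. Observed Alkbh5 reads were 1.57 and 1.31 times this level in cKO mice, and 8.40 and 3.17 times in WT mice. Taken as CPM, Alkbh5 in cKO mice was 19.8% of its WT level, and 8.28% after the silent-gene rate was subtracted. Silent genes in the uppermost of 5 size classes had a lower rate of 2.53 and 1.76 reads per kilobase in cKO mice, and 1.67 and 1.39 in WT mice. Fto lay clear of this level in both groups, at 3.99 and 6.64 times in cKO mice and 5.03 and 2.47 times in WT mice. The other 7 members ranged from 2.87 to 23.9 times in cKO mice and from 1.84 to 10.7 times in WT mice.

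**Figure D1:**
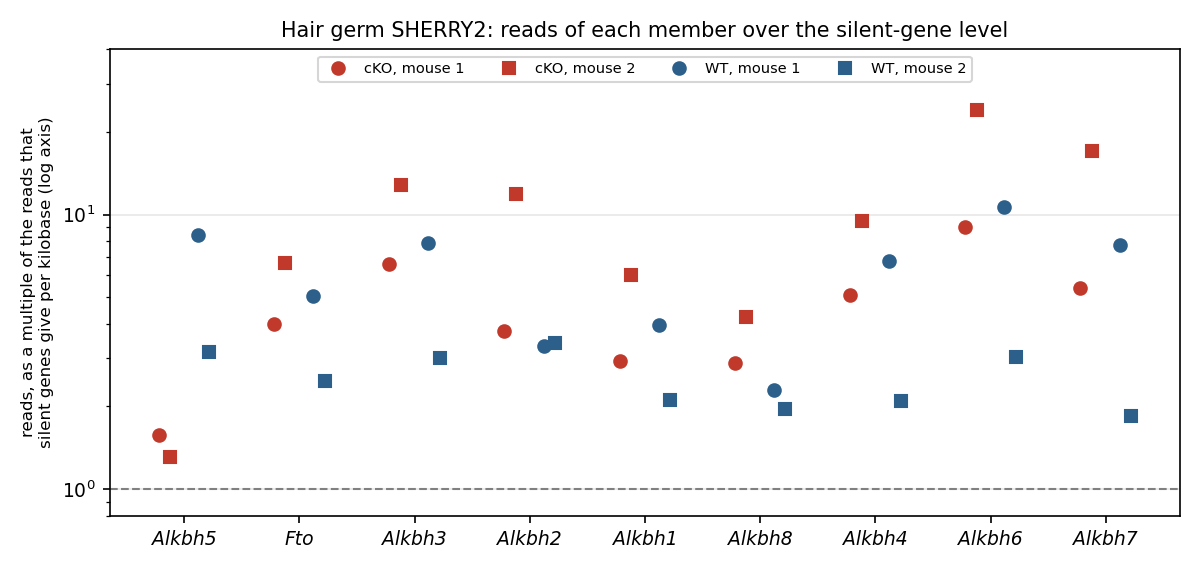
Reads of each member in the 4 hair germ SHERRY2 libraries as a multiple of the reads expected from silent genes of the same exonic length (log axis), with cKO points left of WT points. Alkbh5 is the member nearest to 1 in cKO mice, at 1.57 and 1.31 times, and its WT points lie at 8.40 and 3.17 times.

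By SMART-seq, Alkbh5 did not separate the hair germ libraries by their genotype label. There were 1141 and 946 reads in the libraries labelled cKO, against 1903 and 1102 reads in WT libraries, or 83.5 and 106 scaled CPM against 136 and 94.2 scaled CPM. The groups overlapped. edgeR gave a log2 fold change of -0.28 (SE 0.26, adjusted p = 1.00), or 82.1% of the WT level with a 95% interval of 52.2 to 129%. No gene of 17547 was called by edgeR in this dataset (0%), where 179 had an unadjusted p under 0.05, and none by DESeq2. These libraries are called by their label throughout. Their 8 immune markers summed to 41.8 to 129 CPM, against 24.6 to 41.0 CPM in WT libraries, and their 5 hair germ markers to 1023 to 1142 CPM, against 1231 to 1236 CPM in WT libraries. The 3 endothelial markers, 2 of them at 0 in the libraries labelled cKO, summed to 0.444 to 0.595 CPM there, against 0.692 to 1.25 CPM in WT libraries. Taken singly, only H2-Aa, Cd207, Lgr5, Lef1 and Runx1 of these markers did not overlap between groups. Sums of the other marker lists overlapped, and by scaled values 24.1% of all genes did not. The part of immune, hair germ and endothelial cells in the SMART-seq values was not tested.

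**Figure D2:**
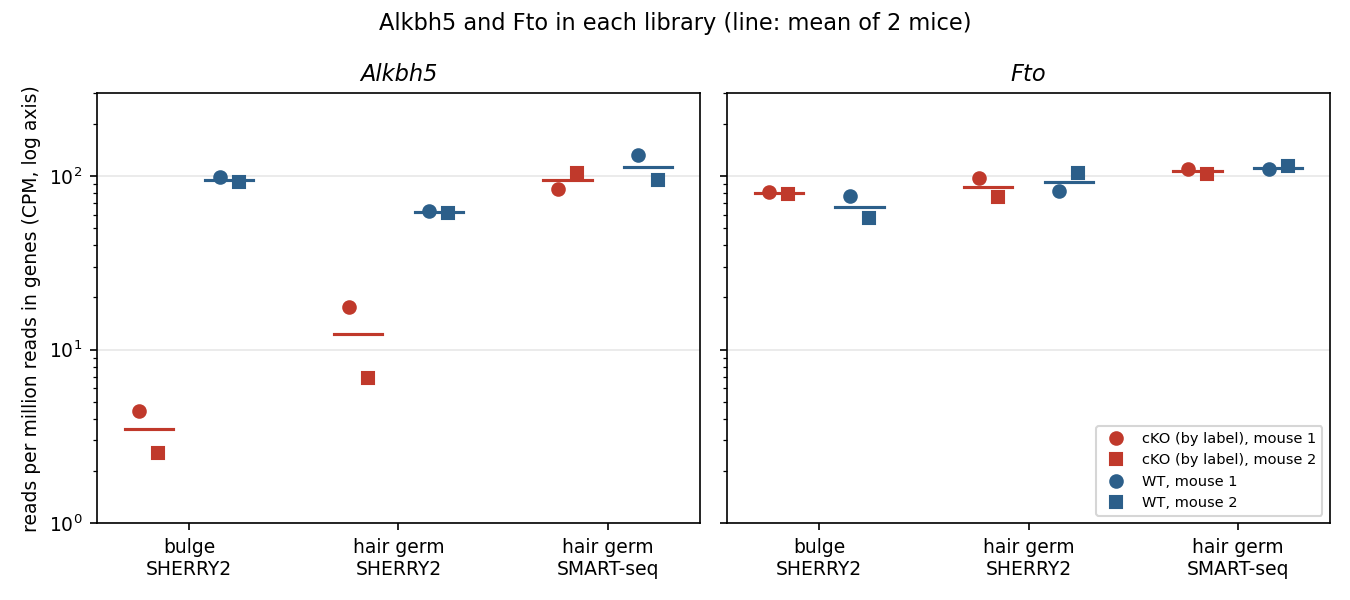
Alkbh5 (left) and Fto (right) in each of the 12 libraries, as unscaled CPM on a log axis, with cKO left of WT in each dataset and a line at the mean of 2 mice. Alkbh5 lies at 4.45 and 2.52 CPM in cKO bulge cells, against 98.9 and 92.1 CPM in WT bulge cells, while Fto stays between 57.2 and 115 CPM in all libraries.

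Over both SHERRY2 datasets together, with dataset as a term, limma on log2(CPM + 1) placed Alkbh5 at -3.42 (SE 0.43, 95% interval -4.35 to -2.49, adjusted p = 0.00616). It had the 8th lowest p and the 2nd most negative change of 13510 genes, of which 0.296% were called and 0.155% were called lower in cKO mice. Alkbh5 stayed called without each of the 8 libraries in turn, with adjusted p-values up to 0.0457. The fall in the bulge was deeper than the difference by SMART-seq: the log2 fold changes differed by -4.67 (SE 0.41, edgeR adjusted p = 0.0335), where 0.0413% of 19371 genes passed. Without 1 library this difference lay between -5.17 and -4.32, and its adjusted p was above 0.05 without bulge cKO mouse 2 (0.173), bulge WT mouse 1 (0.151), bulge WT mouse 2 (0.182), the SMART-seq library labelled cKO 1 (0.0738) or that labelled cKO 2 (0.101). Between the bulge and hair germ SHERRY2 the log2 changes of Alkbh5 differed by -2.08, which limma did not call (adjusted p = 0.687, with 0% of 13510 genes called and 968 at an unadjusted p under 0.05) and edgeR on reads did, at -2.55 (adjusted p = 0.0418). Hair germ SHERRY2 and SMART-seq differed by -2.13 (limma adjusted p = 0.991), with 0% of 15478 genes called and 537 at an unadjusted p under 0.05, and edgeR on reads called none.

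None of the other 8 members passed the test in any dataset, in the joint SHERRY2 comparison or under any alternative tried. The lowest adjusted p over 320 such alternative values was 0.150. None of the 8 had an unadjusted p under 0.05 in the 3 datasets or the joint comparison. By scaled values, cKO and WT libraries did not overlap for 4 of the 8 in the bulge, where 52.3% of all genes did not overlap, for 1 of the 8 in hair germ SHERRY2 (32.8% of all genes), and for 4 of the 8 by SMART-seq (24.1%). In the bulge these were Alkbh4, Alkbh6, Alkbh7 and Alkbh8, in hair germ SHERRY2 Alkbh8, and by SMART-seq Alkbh4, Alkbh7, Alkbh8 and Fto. The members differed by unscaled CPM. In the bulge Alkbh6 and Alkbh7 then overlapped, and Alkbh3 and Fto did not. In hair germ SHERRY2 Alkbh8 overlapped, and Alkbh3, Alkbh6 and Alkbh7 did not. By SMART-seq Alkbh8 and Fto overlapped. The share of all genes without overlap by unscaled CPM was not taken.

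**Figure D3:**
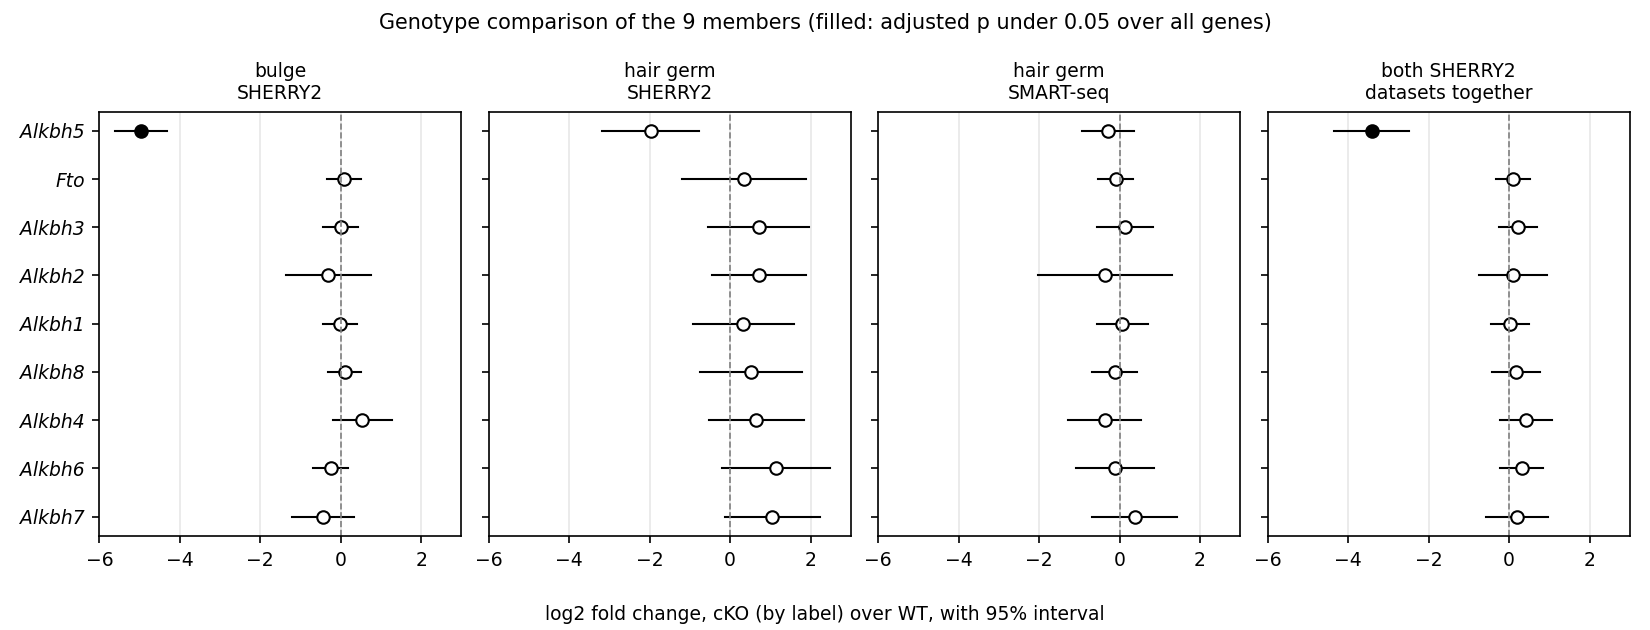
Log2 fold change of each member, cKO (by label) over WT, with its 95% interval in the 3 datasets and in both SHERRY2 datasets together, where filled points passed an adjusted p of 0.05. Alkbh5 is filled in the bulge (-4.97) and in the joint panel (-3.42), and every interval of the other 8 members spans 0.

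Fto, the other m6A demethylase, which also acts on the m6Am mark beside the cap, did not pass the test where Alkbh5 was lost. The gene (ENSMUSG00000055932) spans chr8:92040153-92395067 in the bulge table. In the bulge Fto had 77.1 and 74.2 scaled CPM in cKO mice, against 83.0 and 59.7 scaled CPM in WT mice, so the cKO values lay within the WT range. The log2 fold change was 0.08 (SE 0.19, edgeR adjusted p = 0.857), and its 95% interval put Fto in cKO cells at 78.6 to 143% of the WT level. By unscaled CPM Fto had 81.6 and 78.8 in cKO bulge cells, against 76.6 and 57.2 in WT bulge cells, without overlap. In hair germ SHERRY2 the normalized counts were 109 and 145 in cKO mice, against 121 and 80.6 in WT mice. limma gave 0.34 (95% interval -1.20 to 1.89, adjusted p = 0.982), a wide interval at this depth, and the sign turned to -0.10 when CPM of all reads replaced the size factors. SMART-seq gave 108 and 104 scaled CPM in the libraries labelled cKO, against 113 and 113 scaled CPM in WT libraries (log2 fold change -0.10, edgeR adjusted p = 1.00). Over both SHERRY2 datasets together the change was 0.09 (SE 0.19, limma adjusted p = 0.933), with an interval of 79.2 to 143% of WT.

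The ratio of the pair followed Alkbh5. There were 0.0546 and 0.0320 Alkbh5 reads per Fto read in cKO bulge cells, against 1.29 and 1.61 in WT bulge cells. Hair germ SHERRY2 had 0.181 and 0.0904 in cKO mice, against 0.766 and 0.588 in WT mice. In SMART-seq the ratio was 0.772 and 1.02 in libraries labelled cKO, against 1.20 and 0.830 in WT libraries, and these overlapped. As a share of the reads on all 9 members, Alkbh5 took 2.17 and 1.22% in cKO bulge cells, against 35.3 and 34.7% in WT bulge cells. The summed level of the other 8 members was 201 and 204 CPM in cKO bulge cells, against 182 and 173 CPM in WT bulge cells, without TMM scaling. That scaling moves the bulge as a whole: the median log2 difference of all genes was 0.15 by unscaled CPM and -0.01 after TMM. The median of the 8 members was 0.16 by unscaled CPM and -0.0012 after TMM.

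Alkbh2 and Alkbh3 repair alkylated bases, Alkbh2 mainly in double-stranded DNA and Alkbh3 in single-stranded DNA and RNA. In the bulge Alkbh3 had 19.6 and 20.2 scaled CPM in cKO mice, against 19.5 and 20.1 scaled CPM in WT mice, and the groups overlapped. Its log2 fold change was 0.01 (95% interval -0.43 to 0.44, edgeR adjusted p = 0.993). Alkbh2 had few reads, at 4.15 and 2.47 scaled CPM in cKO bulge cells, against 4.80 and 3.34 scaled CPM in WT bulge cells, and its interval was wide (-1.36 to 0.74). By SMART-seq Alkbh2 had 1.32 and 0.89 scaled CPM in libraries labelled cKO, against 1.57 and 1.28 scaled CPM in WT libraries. Reads of Alkbh2 in hair germ SHERRY2 numbered 12 and 27 in cKO mice, against 7 and 6 in WT mice, and the limma interval there was -0.44 to 1.90. Alkbh3 there had 44.0 and 67.8 normalized counts in cKO mice, against 46.0 and 23.7 in WT mice, and the groups overlapped. By CPM of all reads it had 39.3 and 35.8 in cKO mice, against 31.1 and 30.7 in WT mice, without overlap. By SMART-seq Alkbh3 had 15.4 and 20.2 scaled CPM in libraries labelled cKO, against 15.6 and 16.8 scaled CPM in WT libraries, and the groups overlapped.

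Alkbh1 and Alkbh8 act on transfer RNA: Alkbh1 removes a methyl group from adenosine, and Alkbh8 modifies the wobble uridine. Bulge Alkbh1 had 33.1 and 28.5 scaled CPM in cKO mice, against 28.0 and 34.1 scaled CPM in WT mice (log2 fold change -0.01, 95% interval -0.44 to 0.42, edgeR adjusted p = 0.985). Its sign turned to 0.16 with library totals in place of TMM. Hair germ SHERRY2 had 40.3 and 66.1 normalized counts of Alkbh1 in cKO mice, against 47.9 and 34.8 in WT mice. By SMART-seq it had 29.2 and 29.4 scaled CPM in libraries labelled cKO, against 24.1 and 32.0 scaled CPM in WT libraries. Alkbh1 thus overlapped between groups in all 3 datasets. Alkbh8 had 23.9 and 25.0 scaled CPM in cKO bulge cells, against 22.7 and 22.8 scaled CPM in WT bulge cells. The groups did not overlap, but the difference was small (log2 fold change 0.11, 95% interval -0.30 to 0.52, edgeR adjusted p = 0.802). In hair germ SHERRY2 Alkbh8 had 52.8 and 62.1 normalized counts in cKO mice, against 37.2 and 42.7 in WT mice. By CPM the cKO mice had 47.2 and 32.8, against 25.1 and 55.3 in WT mice, so the separation did not remain on that scale. SMART-seq placed Alkbh8 at 26.1 and 30.1 scaled CPM in libraries labelled cKO, against 30.1 and 31.0 scaled CPM in WT libraries, the opposite order. By unscaled CPM these overlapped, at 26.5 and 29.9 in libraries labelled cKO, against 29.2 and 31.4 in WT libraries.

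Alkbh4, which acts on the protein actin, had the largest upward estimate in the bulge. Its values were 8.23 and 12.8 scaled CPM in cKO mice, against 7.41 and 7.11 scaled CPM in WT mice. Both cKO mice lay above both WT mice, but cKO mouse 1 lay nearer to the WT mice than to cKO mouse 2, and the test was not passed (log2 fold change 0.54, SE 0.32, 95% interval -0.20 to 1.27, edgeR adjusted p = 0.419). SMART-seq gave the opposite order, with 5.05 and 5.59 scaled CPM in libraries labelled cKO, against 6.66 and 7.09 scaled CPM in WT libraries (log2 fold change -0.37, edgeR adjusted p = 1.00). In hair germ SHERRY2 Alkbh4 had 22.7 and 33.5 normalized counts in cKO mice, against 26.4 and 11.1 in WT mice, with overlap. The difference between the bulge and SMART-seq changes, 0.92, did not pass either (95% interval -0.21 to 2.05, edgeR adjusted p = 0.771).

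Alkbh7 is a mitochondrial member with a role in programmed necrosis, and Alkbh6 is less well described. Alkbh7 had 4.70 and 6.56 scaled CPM in cKO bulge cells, against 7.26 and 8.04 scaled CPM in WT bulge cells (log2 fold change -0.44, 95% interval -1.21 to 0.33, edgeR adjusted p = 0.541). SMART-seq again had the opposite order, at 5.19 and 5.37 scaled CPM in libraries labelled cKO, against 4.72 and 3.42 scaled CPM in WT libraries. Hair germ SHERRY2 libraries held 16 and 36 Alkbh7 reads in cKO mice, against 15 and 3 reads in WT mice, where a few reads set the value. By CPM of all reads these were 10.5 and 15.5 in cKO mice, against 9.91 and 6.14 in WT mice, without overlap. Alkbh6 had 19.3 and 22.4 scaled CPM in cKO bulge cells, against 24.0 and 25.6 scaled CPM in WT bulge cells (log2 fold change -0.25, edgeR adjusted p = 0.533). Hair germ SHERRY2 had 59.4 and 125 normalized counts of Alkbh6 in cKO mice, against 61.6 and 23.7 in WT mice, with the highest value in cKO mouse 2 and the lowest in WT mouse 2, the deepest and the shallowest library. limma gave 1.15 there (95% interval -0.19 to 2.49, adjusted p = 0.970). By CPM of all reads Alkbh6 had 53.1 and 66.0 in cKO mice, against 41.6 and 30.7 in WT mice, without overlap. By SMART-seq Alkbh6 had 4.61 and 5.81 scaled CPM in libraries labelled cKO, against 5.51 and 5.73 scaled CPM in WT libraries. An antisense gene overlaps Alkbh6 and had 15 and 34 reads in cKO bulge cells, against 8 and 6 reads in WT bulge cells. Without a stated strand setting, reads of the 2 cannot be told apart, and Alkbh1, Alkbh2, Alkbh3 and Fto also overlap a gene on the opposite strand. Alkbh4, Alkbh5 and Alkbh7 overlap no other gene in the bulge table.

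Directions of the 8 members differed between datasets and scalings. After TMM, 4 of 8 were positive in the bulge (5 of 8 by unscaled CPM) and 3 of 8 by SMART-seq under both scalings. In hair germ SHERRY2 all 8 were positive by the deposited normalized counts, with a median log2 change of 0.68 against 0.057 over all genes, but 6 of 8 by CPM of all reads, with a median of 0.25 against -0.33 over all genes. None of these changes passed the test. In the joint comparison the 8 changes lay between 0.03 (Alkbh1) and 0.42 (Alkbh4), with a median of 0.18 against 0.085 over all genes. No difference of the genotype effect between datasets passed for any of the 8 members.

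Per exonic kilobase, Alkbh5 was the most abundant member in WT bulge cells and by SMART-seq. Levels between tables were set side by side without a test, since annotation and library preparation differ. The FPKM of the authors, a CPM divided by the exonic length in kilobases, was 0.74 and 0.42 for Alkbh5 in cKO bulge cells, where it was last of the 9, against 16.5 and 15.4 in WT bulge cells. Alkbh6 followed in WT bulge cells at 7.48 ± 0.531 CPM per kilobase (SD, n = 2). Next in order came Alkbh7, Alkbh3, Fto, Alkbh1, Alkbh2, Alkbh4 and Alkbh8, and Alkbh8 was last at 2.45 ± 0.0686. Alkbh6 overlapped with Alkbh7, and from Alkbh3 to Alkbh4 each member overlapped with its neighbour. Of all detected genes, 87.0% lay at or below Alkbh5 per kilobase in WT bulge cells, and 68.3% at or below Fto. SMART-seq WT libraries had Alkbh5 first at 19.0 ± 4.33 and Fto next at 8.61 ± 0.282 CPM per kilobase, without overlap. The libraries labelled cKO had the same order at the top, with Alkbh5 at 15.9 ± 2.40 and Fto at 8.18 ± 0.361. Alkbh2 was lowest in both SMART-seq groups, at 0.999 ± 0.285 in libraries labelled cKO and 1.27 ± 0.145 in WT libraries.

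The place of Alkbh6 in the order differed between the SHERRY2 and SMART-seq datasets of hair germ cells, and the cause was not tested. By SHERRY2 Alkbh6 was the first of the 9, at 19.1 ± 2.93 CPM per kilobase in cKO mice and 11.6 ± 2.48 in WT mice. By SMART-seq it was the 8th, at 1.67 ± 0.248 in libraries labelled cKO and 1.78 ± 0.103 in WT libraries. Fto was at 6.68 ± 1.15 CPM per kilobase in cKO and 7.15 ± 1.22 in WT hair germ cells by SHERRY2, nearer to its SMART-seq levels than Alkbh6 was. Alkbh5 was last in cKO hair germ cells by SHERRY2, at 2.05 ± 1.27, and came after Alkbh6, with overlap, in WT hair germ cells, at 10.4 ± 0.165.

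**Figure D4:**
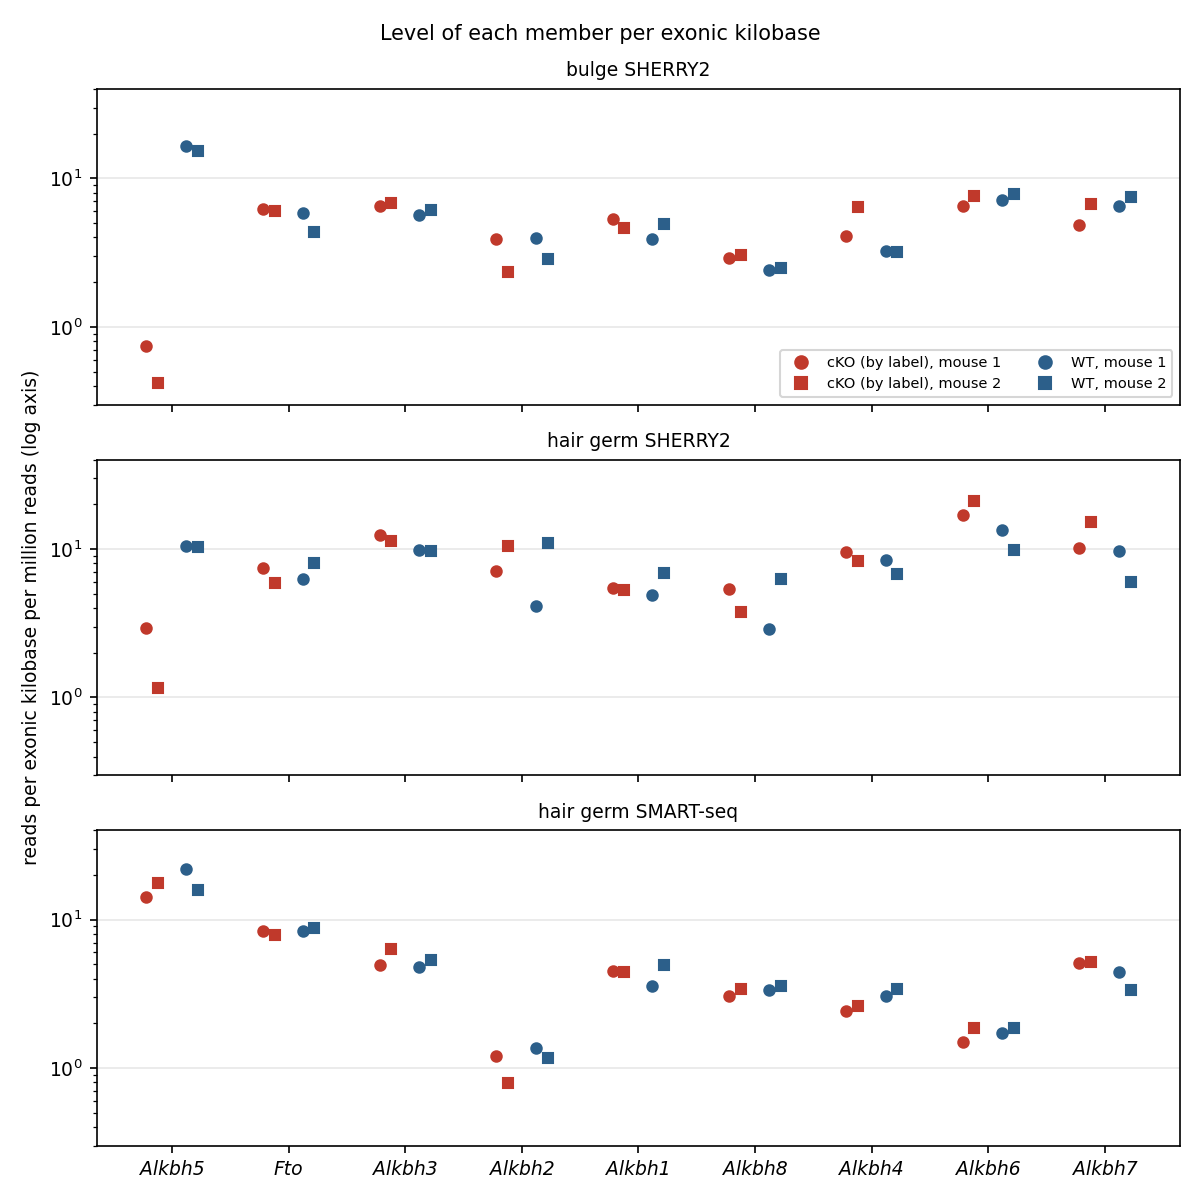
Level of each member per exonic kilobase (CPM per kilobase, log axis) in the 3 datasets, with cKO points left of WT points and 1 point per library. Alkbh5 is highest in WT bulge cells (15.9 on average) and lowest in cKO bulge cells (0.58), and Alkbh6 lies higher in both SHERRY2 datasets than by SMART-seq.

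Genes of m6A marking, of 2-oxoglutarate enzymes and metabolism, and of alkylation repair were read from 6 lists. In the bulge 4 of the 105 list genes tested were called, beside 3.04% of all genes, and 14 had an unadjusted p under 0.05, beside 2968 of all 15672 genes. Of 14 m6A and m6Am methyltransferase genes tested in the bulge, none was called by edgeR or DESeq2, 1 had an unadjusted p under 0.05, and the median log2 change was 0.03 against -0.01 over all genes. Of 13 m6A reader genes none was called by either tool, with 1 at an unadjusted p under 0.05 and a median of 0.02. Nuclear and JmjC oxygenases had 0 of 27 called with a median of 0.07 (2 at an unadjusted p under 0.05), and genes of 2-oxoglutarate metabolism 0 of 15 with a median of -0.00081 (1 such gene), also by DESeq2. Of 19 collagen and other 2-oxoglutarate hydroxylases tested, 1 rose and 2 fell, and the median was -0.16. Plod2, a collagen lysyl hydroxylase, rose to 25.9 ± 0.867 scaled CPM in cKO bulge cells, against 1.17 ± 0.149 scaled CPM in WT bulge cells (log2 fold change 4.45, edgeR adjusted p = 0.00067). Bbox1, the last enzyme of carnitine synthesis, fell to 113 ± 4.69 scaled CPM in cKO bulge cells, against 267 ± 8.35 scaled CPM in WT bulge cells (log2 fold change -1.24, edgeR adjusted p = 0.00792). Phyh, which oxidises phytanic acid in peroxisomes, was lower by a log2 fold change of -0.77 (edgeR adjusted p = 0.0489) and lost the call with library totals in place of TMM and without any 1 of the 4 libraries, with adjusted p-values of 0.0645 to 0.182 in the leave-outs. Of 17 alkylation repair partners Mgmt was called, with a list median of 0.05. Mgmt, which reverses guanine alkylation directly, rose to 34.6 ± 8.01 scaled CPM in cKO bulge cells, against 11.3 ± 1.18 scaled CPM in WT bulge cells (log2 fold change 1.62, edgeR adjusted p = 0.0157).

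None of these list genes was called in hair germ cells. In hair germ SHERRY2, 8 of 110 list genes tested had an unadjusted p under 0.05, beside 1801 of all 38953 genes, and none was called by limma, edgeR or DESeq2. By SMART-seq 1 of 105 had one, beside 179 of all 17547 genes, and none was called by edgeR or DESeq2. Over both SHERRY2 datasets together limma called none, with 9 of 103 at an unadjusted p under 0.05 beside 1343 of all 13510 genes, and edgeR called Mgmt.

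The genes whose pattern over the 12 libraries was most like that of Alkbh5 were looked for among 9980 genes with at least 5 CPM on average in each dataset. Likeness was the root mean square difference of log2(CPM + 1), centred within each dataset. Igfbp3 came first at 0.55, followed by Nr4a3 at 0.65, Nr4a1 at 0.69, Arid5a at 0.73 and Nfil3 at 0.75, against a median of 1.57 over the genes and 1.49 for a gene with no change. Igfbp3 encodes a binding protein of insulin-like growth factors. It averaged 93.7 CPM in cKO and 699 CPM in WT bulge cells, 52.5 CPM in cKO and 333 CPM in WT hair germ cells by SHERRY2, and 30.1 CPM in libraries labelled cKO and 50.2 CPM in WT libraries by SMART-seq. Igfbp3 and Arid5a were also among the first 5 with a pseudocount of 5.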

How the data were processed

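RNA-seq of 12 libraries in 3 datasets was used (2 cKO and 2 WT mice each). Raw read counts per gene were deposited for the bulge and for hair germ SMART-seq, and the authors' FPKM and exonic gene sizes for the bulge. For hair germ SHERRY2 the deposited signal was read counts divided by 1 size factor per library, so the test of normalized values was used in place of a count test. Whole reads were recovered for 100% of these values (within 0.01 reads). Per the submitters' processing notes, STAR and featureCounts were among the tools. Versions and the strand setting are not stated there.

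Counts were tested with edgeR 4.0.16 (TMM, quasi-likelihood) and normalized values with limma 3.58.1 on log2(value + 1) at a mean of at least 1, in R 4.3.3, with Benjamini-Hochberg adjustment over all genes and a threshold of 0.05. DESeq2 1.42.0 was an alternative. The fits were tested on simulated data. Alternatives covered scaling, filters, pseudocounts, recovered reads, a replicate block and leaving out each library. The silent-gene level, the other scalings and the leave-outs on recovered reads were added after seeing the data. P-values weigh a difference between groups of 2 mice against the spread between mice within groups, drawn toward that of all genes. Comparisons over 2 datasets share 1 spread per gene. Where a library was left out, the lone library was assumed to vary like the other groups.

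All 9 members were named, with the list genes past the threshold (at most 6 per list) and the 5 genes most like Alkbh5. The members and lists were chosen with earlier results of these data known.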

Additional observations from a re-analysis of the deposited data

Results flagged for a closer look

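The log2 fold change of Alkbh5 differed between the bulge and hair germ SMART-seq by -4.67 (SE 0.41, 95% interval -5.62 to -3.71, edgeR with Benjamini-Hochberg adjusted p = 0.0335), a difference between datasets under the same genotype contrast. It was -4.97 in the bulge, where both cKO mice lay below both WT mice, and -0.28 by SMART-seq, where libraries labelled cKO overlapped with WT libraries. The datasets also differ in cell population, library preparation and mice, and these cannot be told apart.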

How the results depend on the processing

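With 2 mice per group, 1 library can decide a call. Genes called in the bulge numbered 1191 by DESeq2, 1549 without the filter and 809 with library totals, and 218 to 1601 without 1 library. Hair germ SHERRY2 had 0 with a pseudocount of 0.1, without the filter or by DESeq2, 19 with a pseudocount of 5, 63 by edgeR, 16 by CPM, and 0 to 32 without 1 library. SMART-seq had 30 without the filter. Both SHERRY2 datasets had 110 by edgeR, and 10 to 82 without 1 library.

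Alkbh5 in hair germ SHERRY2 was -2.31 by edgeR on reads (-2.72 to -1.87 without 1 library), and 8.28% of WT after the silent-gene rate was subtracted. By SMART-seq it was -0.52 to 0.0032 without 1 library. The difference from the bulge was -2.55 by edgeR for hair germ SHERRY2, and -5.17 to -4.32 without 1 library for SMART-seq.

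Signs of members that passed no test turned. Alkbh1 in the bulge was 0.0063 with RLE, 0.0073 by DESeq2 and 0.16 with library totals. By CPM in hair germ SHERRY2, Alkbh1 was -0.10 and Fto -0.098. By edgeR over both SHERRY2 datasets, Alkbh1 was -0.037, Alkbh2 -0.0026 and Alkbh7 -0.0058. Without 1 bulge library, Alkbh1 was -0.15 to 0.13, Alkbh2 -0.69 to 0.010, Alkbh3 -0.026 to 0.058 and Fto -0.14 to 0.34. Without 1 hair germ SHERRY2 library, Alkbh1 was -0.018 to 0.68. Without 1 SMART-seq library, Alkbh1 was -0.13 to 0.29, Alkbh3 -0.077 to 0.34 and Alkbh6 -0.29 to 0.066. Over both SHERRY2 datasets without 1 library, Alkbh1 was -0.063 to 0.15, Alkbh2 -0.20 to 0.30, Alkbh7 -0.013 to 0.37, Alkbh8 -0.032 to 0.41 and Fto -0.033 to 0.19. TMM factors moved the rank per length of 2 members in each hair germ SHERRY2 group. The cause of these changes was not tested.

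Mouse numbers did not pair the samples by the labels, and deviations of same-numbered mice correlated at 0.020 (bulge), 0.23 (SMART-seq) and -0.16 (hair germ SHERRY2). With the replicate block, 5 genes were called in hair germ SHERRY2 and 18 over both SHERRY2 datasets, and Alkbh5 was -4.99 in the bulge, -1.98 in hair germ SHERRY2, -0.27 by SMART-seq and -3.42 over both SHERRY2 datasets. Whether depth limits the calls in hair germ SHERRY2 was not tested.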
